A study of Mus musculus with 4 samples.

Results

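Centrosomal genes were compared between hearts of control mice (Ctrl) and of mice that overexpress miR-128 in cardiomyocytes (miR-128OE), all at postnatal day 7 (P7). The genes were chosen by symbol as autosomal protein-coding genes named *Cep*, *Haus* or *Tubgcp* with a number, together with *Cdk5rap2*, *Pcnt*, *Pcm1*, *Plk4*, *Sass6* and *Cenpj*. This gave 56 of the 24454 genes in the table. Another 2 rows with matching symbols were left out, namely *Haus7*, which is X-linked, and *Cep83os*, which is a long noncoding RNA. The miR-128OE hearts came from mice with both the *α-MHC*-tTA and the miR-128TetRE transgene, a Tet-off system that is silenced by doxycycline, and Ctrl hearts from mice with miR-128TetRE alone. The tTA activator, which is driven by the *α-MHC* promoter in cardiomyocytes, was thus present in 1 condition only. Its own part and that of miR-128 cannot be told apart. RNA-seq was made from hearts, with 2 libraries of Ctrl (WH7 and WH8) and 2 of miR-128OE (WH9 and WH10). The paper does not say which parts of the heart they held. The labels do not say whether a library holds 1 heart or several, so the p-values measure the spread between these libraries.

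The centrosome is the main microtubule-organizing center of dividing animal cells. It holds a pair of centrioles, which are copied once in each cell cycle, within a pericentriolar material that anchors the gamma-tubulin ring complexes from which microtubules grow. Augmin, built from the Haus proteins, places further gamma-tubulin on existing spindle microtubules, and the older centriole carries appendages that let it serve as the base of a primary cilium. In mammalian cardiomyocytes, microtubule organization moves from the centrosome to the nuclear envelope around birth, when these cells leave the cell cycle.

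Total counts ranged from 8096870 to 14359838 per library. The table held 0 counts for *Mir128-1* in every library, and 0 and 0 counts in Ctrl against 2 and 10 in miR-128OE for *Mir128-2*, so it does not show the overexpression. In WH7 and WH8 the table listed 14543 and 11339 counts for *Xist*, which silences an X chromosome in females, and in WH9 and WH10 it listed 94 and 132. The Y-linked *Ddx3y* had the opposite pattern, with 13 and 7 counts in WH7 and WH8 and 1442 and 1768 in WH9 and WH10. The sex of the mice therefore coincided with the condition, and the effects of sex and of the transgenes cannot be told apart for any gene below. Cardiomyocyte markers were plentiful in every library, with 29980 to 37100 CPM (counts scaled to library size) summed over 6 genes.

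Of the 56 centrosomal genes, 55 passed the filter on low counts. The gene left out, *Cep295nl*, was nearly silent, with 6 and 7 reads in the Ctrl libraries against 2 and 4. By edgeR's quasi-likelihood test, 25 of the 55 were lower in miR-128OE hearts at an adjusted p-value under 0.05, which is 45.5% where 15.0% of all 14266 tested genes were lower. Only 1 of the 55, *Cep20*, was higher, against 16.5% of all tested genes. The median log2 fold change (log2FC) of the 55 genes was −0.44, a level of 73.9% of Ctrl, and that of all tested genes was −0.01. In 40 of the 55, both miR-128OE libraries lay below both Ctrl libraries, and in 6 both lay above, where these shares over all tested genes were 34.4% and 33.7%. Between single libraries, the median log2 ratio over the 55 genes ranged from −0.56 (WH9 against WH8) to −0.28 (WH10 against WH7), and within a condition it was 0.14 for WH8 against WH7 and 0.09 for WH10 against WH9.

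**Figure D1:**
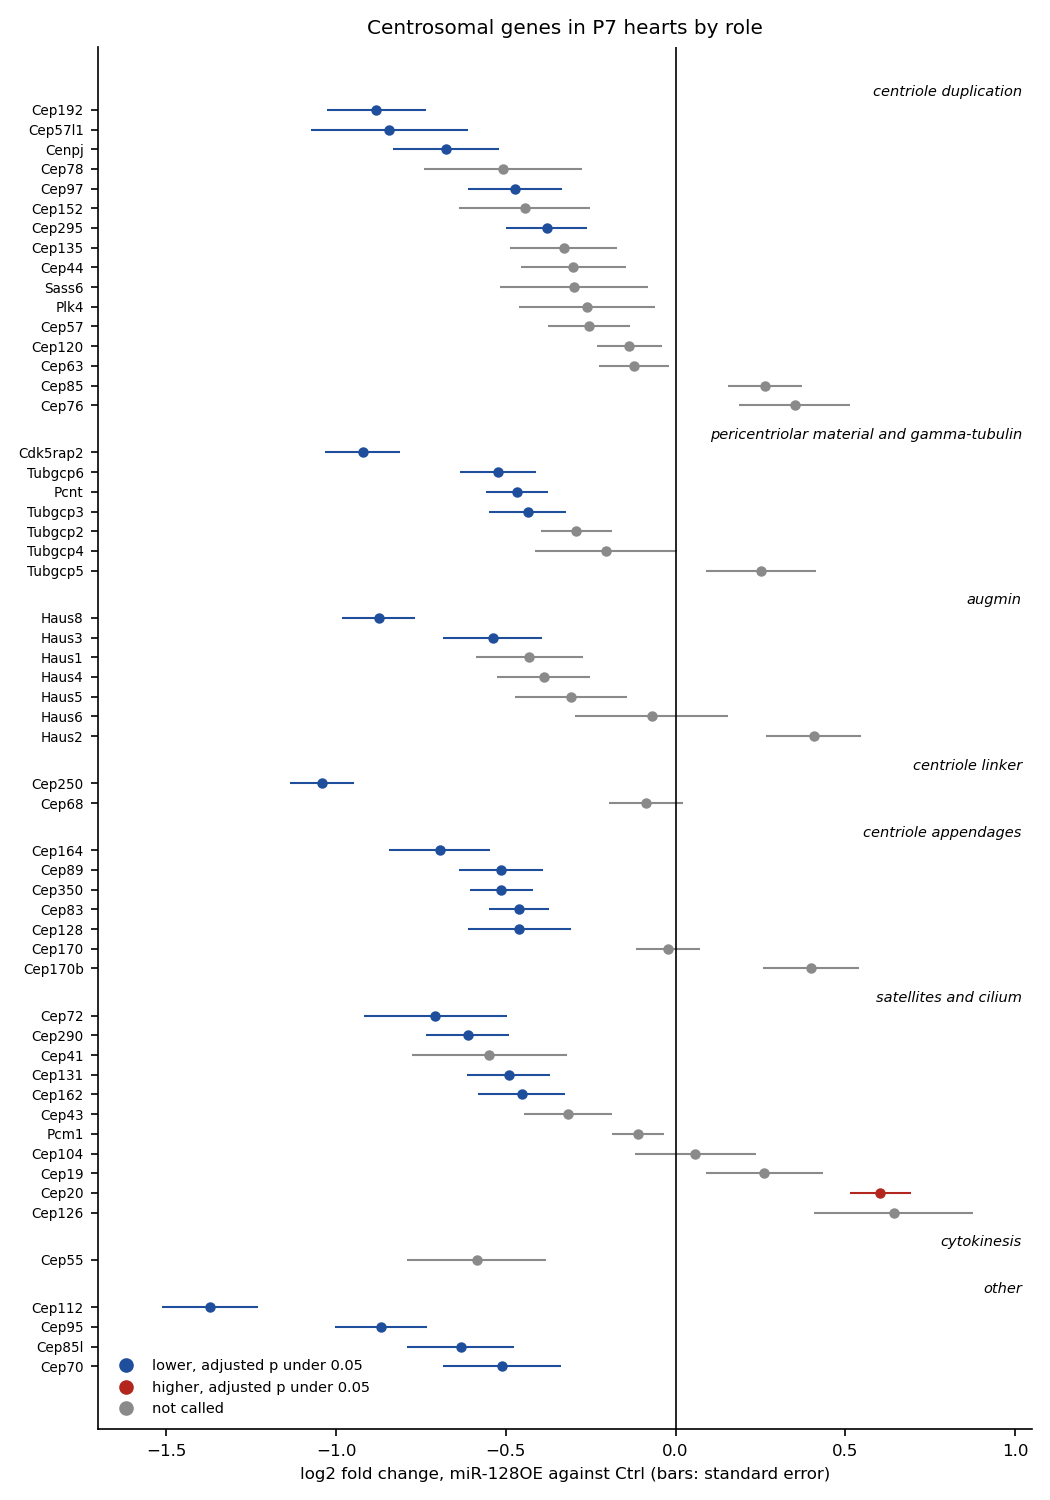
Log2 fold change of each of the 55 tested centrosomal genes in miR-128OE against Ctrl hearts, grouped by role, with bars for the standard error (SE). Blue points mark the 25 genes that were lower, the red point marks *Cep20*, and grey points mark the 29 genes past no threshold, most of which also lie left of 0.

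The number of calls rested on the replicates. All 25 lower genes kept their sign whichever library was omitted. In each of them both miR-128OE libraries lay below both Ctrl libraries, so this outcome was all but set in advance. The number called lower was 32 without Ctrl WH7, 20 without Ctrl WH8, 8 without miR-128OE WH9 and 11 without miR-128OE WH10, and the share of all tested genes called lower fell with it, to 4.56% without WH9 and 6.97% without WH10. *Cdk5rap2*, *Cep112*, *Cep192*, *Cep250*, *Cep95* and *Haus8* were called in all 4 of these fits. DESeq2, run without the main filter on low counts and with its own default filter, called 15 of the 56 genes lower (26.8%), all of them among the 25. It called 7.03% of all 18880 genes lower. This total holds low-count genes that the main test left out, which can lower the share. By level, 17 of the 28 genes with a mean of at least 200 normalized counts were lower, against 8 of the 27 below that level. Their median SE was 0.11 against 0.17 on the log2 scale. Of all tested genes, 15.0% were lower, and their shares at each level were not computed. The median log2FC of the centrosomal genes also differed between these levels, at −0.46 and −0.33, and the part of depth in the number of calls was not tested.

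Measured per exon length, the centrosomal genes spanned a wide range of levels in Ctrl hearts. The mean level of the 55 genes in Ctrl, in CPM per kilobase of exon (RPKM), ranged from 0.928 for *Tubgcp4*, a gamma-tubulin complex subunit, to 15.0 for *Pcm1*, the scaffold of centriolar satellites, with a median of 3.0 RPKM. Only *Pcm1*, *Cep57* and *Cep43* reached 10 RPKM, and 11 genes were under 2 RPKM. The median over the 55 genes was 2.20 RPKM in miR-128OE hearts. *Pcm1* was the most abundant in both conditions, with 15.1 and 14.9 RPKM in the Ctrl libraries and 14.1 and 13.7 RPKM in the miR-128OE libraries. The next genes in this order were *Cep57* (12.6 ± 1.95 RPKM, SD, n = 2) and *Cep43* (10.5 ± 1.65 RPKM, SD, n = 2), whose ranges overlapped in Ctrl. Within each Ctrl library *Cep57* was the higher, at 11.2 against 9.28 RPKM in WH7 and 14.0 against 11.6 RPKM in WH8. The difference was not tested.

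**Figure D2:**
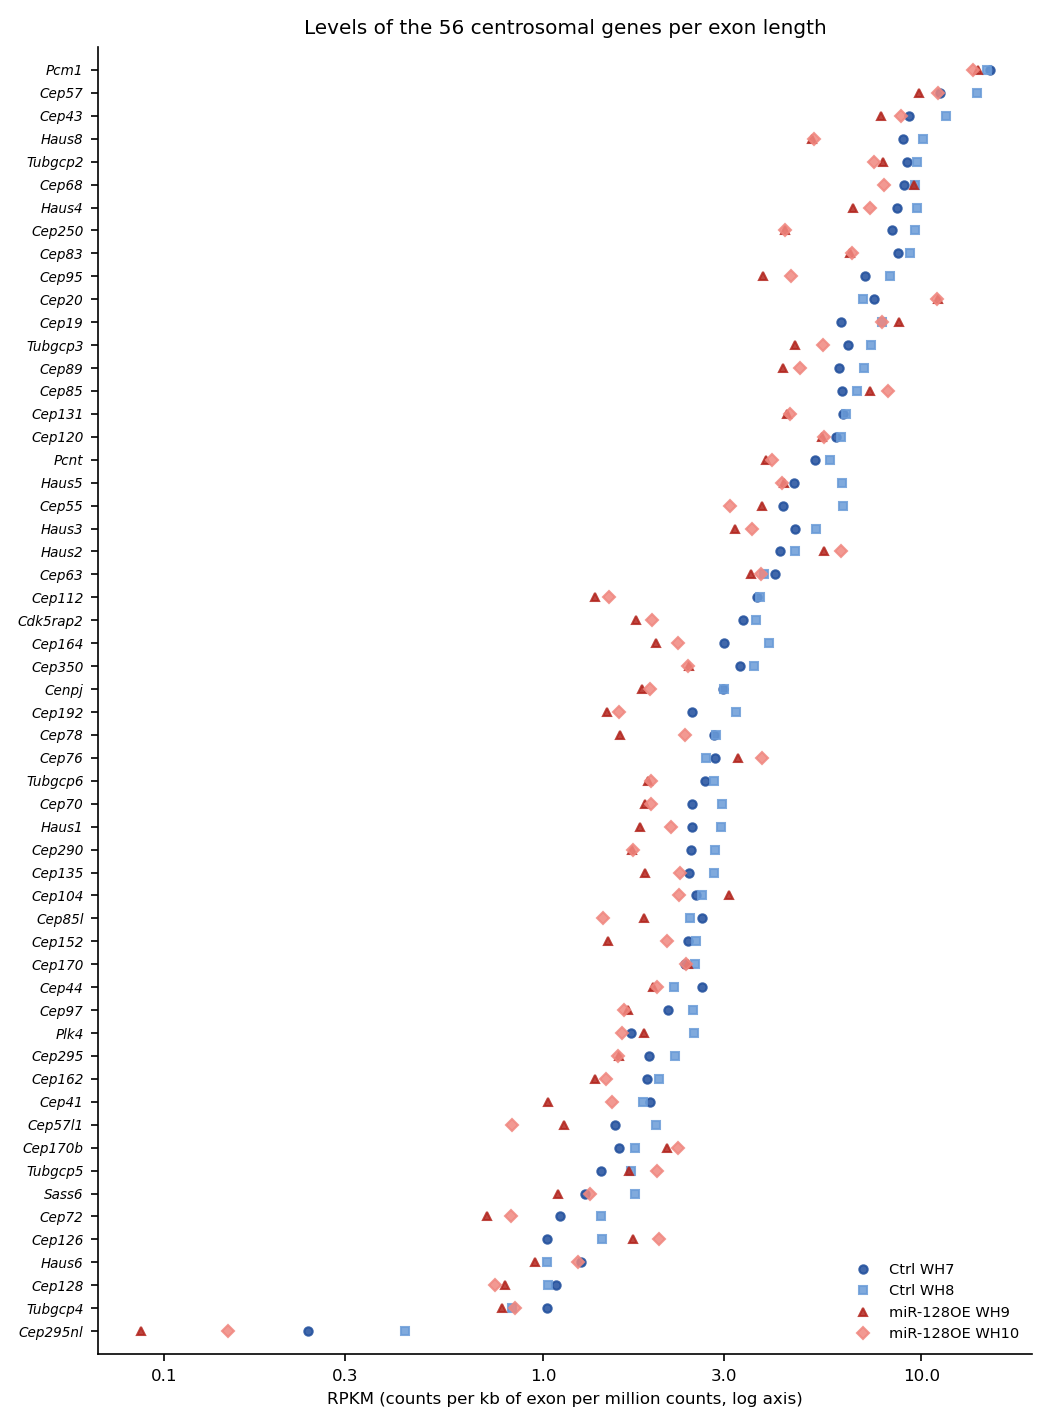
Level of each of the 56 centrosomal genes in the 4 libraries in RPKM on a log axis, ordered by the Ctrl mean. The red miR-128OE symbols lie left of the blue Ctrl symbols for most genes, whereas *Pcm1* at the top lies between 13.7 and 15.1 RPKM in all 4 libraries, and *Cep20* lies to the right.

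Among the genes of centriole duplication, 5 of 16 were lower and 0 were higher, beside 15.0% and 16.5% of all tested genes. The median log2FC of this group was −0.31. *Plk4* encodes the kinase that starts the assembly of a new centriole. It had 138 and 202 normalized counts in Ctrl WH7 and WH8 and 150 and 130 in miR-128OE WH9 and WH10. The Ctrl libraries lay on both sides of WH9, so the conditions overlapped, and the log2FC of −0.26 (SE 0.20, adjusted p = 0.350) did not pass the threshold and was 0.0187 without Ctrl WH8. *Sass6*, whose product forms the hub of the centriole cartwheel, also overlapped, with 93.3 and 126 normalized counts in Ctrl and 79.2 and 95.9 in miR-128OE (log2FC −0.30, SE 0.22, adjusted p = 0.328). It shares 24.5% of its exon bases with the antisense gene *Gm42893*. *Cenpj*, which encodes the centriole elongation factor CPAP, separated the conditions. It had 172 and 172 normalized counts in Ctrl and 105 and 110 in miR-128OE, a log2FC of −0.68 (SE 0.16, adjusted p = 0.0104). Its call was lost with DESeq2 (adjusted p = 0.0547) and without either miR-128OE library.

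*Cep192*, a scaffold that recruits the duplication kinase and pericentriolar material, had the smallest p-value of this group. It had 363 and 475 normalized counts in Ctrl and 217 and 234 in miR-128OE. Both miR-128OE libraries were thus far below the lower Ctrl library, and the log2FC was −0.88 (SE 0.15, adjusted p = 0.0021). Its partner in recruiting the kinase, *Cep152*, had 165 and 172 normalized counts in Ctrl and 101 and 145 in miR-128OE, a difference that did not pass the threshold (log2FC −0.44, adjusted p = 0.107). The other lower genes of the group were *Cep57l1* (log2FC −0.84), *Cep97* (−0.47) and *Cep295* (−0.38). *Cep57*, the paralog of *Cep57l1*, had a log2FC of −0.26 (adjusted p = 0.139). *Cep76* and *Cep85* had positive log2FCs of 0.35 and 0.26, with adjusted p-values of 0.131 and 0.0942.

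**Figure D3:**
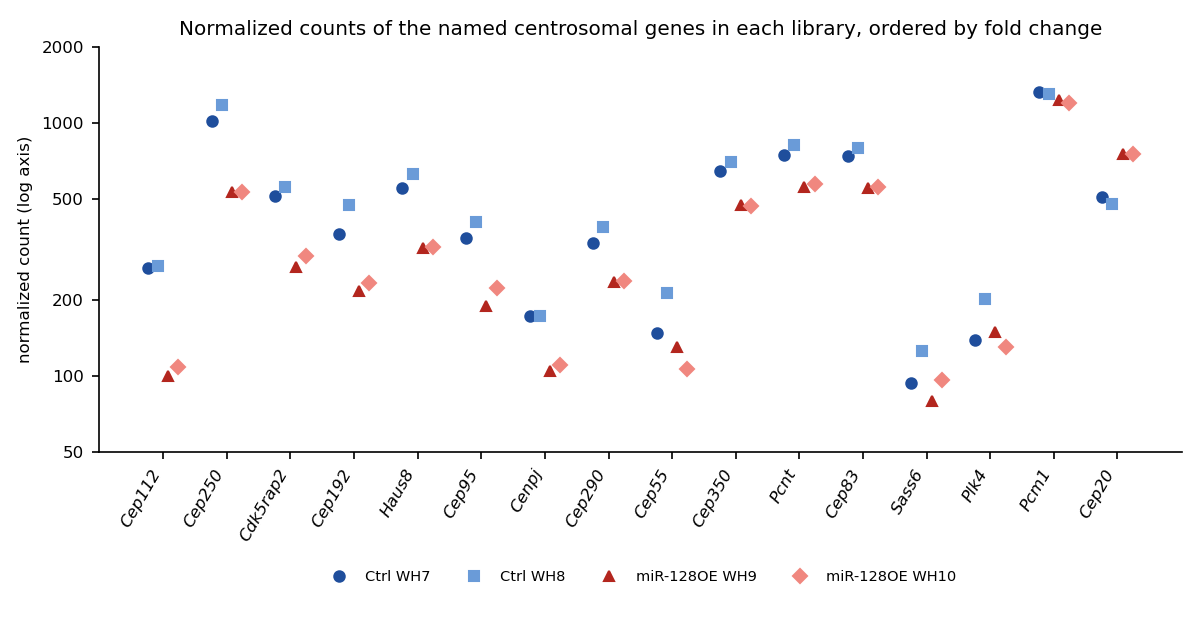
Normalized counts of 16 named centrosomal genes in each library on a log axis, ordered from the most negative fold change on the left to the positive one of *Cep20* on the right. Blue symbols are Ctrl and red symbols miR-128OE libraries. The conditions overlap for *Sass6* and *Plk4* and are apart for the others, by a small margin for *Pcm1*.

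Pericentriolar material and gamma-tubulin complexes held 4 lower genes among 7, beside 15.0% of all tested genes, with a median log2FC of −0.44. *Cdk5rap2* encodes a pericentriolar scaffold that binds and activates gamma-tubulin complexes. It lies on chromosome 4 of GRCm38 from 70216856 to 70410443, and had 517 and 561 normalized counts in Ctrl and 269 and 298 in miR-128OE. Its highest miR-128OE library was well below its lowest Ctrl library, with means of 539 ± 31.4 (SD, n = 2) and 284 ± 20.1 (SD, n = 2) and a log2FC of −0.92 (SE 0.11, adjusted p = 0.000441). *Pcnt*, which encodes pericentrin, the large coiled-coil scaffold of the same material, had 747 and 821 normalized counts in Ctrl and 556 and 576 in miR-128OE. The conditions were apart, with a smaller log2FC of −0.47 (SE 0.09, adjusted p = 0.00489). Its adjusted p was 0.0773 without miR-128OE WH9.

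Among the 5 measured *Tubgcp* genes, which encode the subunits that join gamma-tubulin into rings, *Tubgcp6* (log2FC −0.52, adjusted p = 0.00763) and *Tubgcp3* (−0.44, adjusted p = 0.0176) were lower. *Tubgcp2* had −0.29, *Tubgcp4* −0.21 and *Tubgcp5* 0.25, with adjusted p-values of 0.0593, 0.486 and 0.264. *Tubgcp2* and *Tubgcp3*, the subunits of the small complex, had 9.44 and 6.87 RPKM in Ctrl, above 0.928 to 2.75 RPKM for the 3 subunits found only in the large ring. *Tubgcp4* shares 25.4% of its exon bases with *Trp53bp1* on the opposite strand, and the authors' handling of strand is not given in the sources used here.

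Augmin was represented by its 7 autosomal subunits, of which 2 were lower, 0 were higher and 5 did not pass the threshold. The shares over all tested genes were 15.0% lower and 16.5% higher. *Haus8*, the subunit that binds microtubules directly, had 555 and 628 normalized counts in Ctrl and 320 and 323 in miR-128OE. The miR-128OE libraries lay close together below both Ctrl libraries, with a log2FC of −0.87 (SE 0.11, adjusted p = 0.000471). *Haus3* had a log2FC of −0.54 (adjusted p = 0.0207) and shares 108 exon bases with *Poln* on the same strand. *Haus1*, *Haus4* and *Haus5* had log2FCs of −0.43, −0.39 and −0.31 and *Haus6* of −0.07, with adjusted p-values from 0.0552 to 0.842. *Haus5* shares 56.5% of its exon bases with *Gm21982* on the same strand, so its count is uncertain. *Haus2* had 160 and 175 normalized counts in Ctrl and 210 and 232 in miR-128OE. Both of its miR-128OE libraries were the higher ones, and its log2FC of 0.41 missed the threshold (adjusted p = 0.0536). The differences between subunits were not tested.

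Of the 2 genes of the linker that holds the centrioles together before mitosis, *Cep250* fell by 1.04 on the log2 scale (SE 0.09, adjusted p = 0.000115), the smallest p-value of the 55 genes. It encodes C-Nap1, which caps the base of each centriole, and lies on chromosome 2 from 155956458 to 155998900. It had 1022 and 1174 normalized counts in Ctrl and 533 and 532 in miR-128OE. The level in miR-128OE was thus close to one value in both libraries and far below the lower Ctrl library. *Cep250* shares 1149 exon bases with *6430550D23Rik* on the opposite strand, so part of its reads could belong to that gene. *Cep68*, the other linker gene, had 622 and 663 normalized counts in Ctrl and 659 and 550 in miR-128OE. The conditions overlapped (log2FC −0.09, adjusted p = 0.572).

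The appendage genes held 5 lower genes among 7, beside 15.0% of all tested genes, with a median log2FC of −0.46. *Cep83*, *Cep89* and *Cep164* encode proteins of the distal appendages, which dock the centriole to the membrane. Their log2FCs were −0.46 (adjusted p = 0.00452), −0.51 (adjusted p = 0.0127) and −0.69 (adjusted p = 0.00763). *Cep83* had 740 and 797 normalized counts in Ctrl and 554 and 560 in miR-128OE. *Cep350*, which encodes a large centriole protein, had 646 and 701 normalized counts in Ctrl and 472 and 469 in miR-128OE. In both genes the conditions were apart by more than the distance between replicates, and the log2FC of *Cep350* was −0.51 (SE 0.09, adjusted p = 0.00336). Without WH9, the adjusted p was 0.0692 for *Cep83* and 0.0509 for *Cep350*. *Cep128*, a subdistal appendage gene, was lower by 0.46 on the log2 scale close to the threshold (adjusted p = 0.0443). The paralogs *Cep170* and *Cep170b* of the subdistal appendages had log2FCs of −0.02 and 0.40 (adjusted p = 0.879 and 0.0593), and all 4 libraries of *Cep170* lay between 504 and 536 normalized counts.

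Satellite and cilium genes held calls in both directions, with 4 lower and 1 higher among 11, beside 15.0% and 16.5% of all tested genes. Their median log2FC was −0.32. *Cep290*, which encodes a protein of the gate at the base of the cilium, had 337 and 389 normalized counts in Ctrl and 236 and 236 in miR-128OE. The log2FC was −0.61 (SE 0.12, adjusted p = 0.00554, or 0.0595 without WH9), and 881 of its exon bases are shared with *4930430F08Rik* on the opposite strand. The satellite genes *Cep131* and *Cep72* had log2FCs of −0.49 and −0.71 and the cilium gene *Cep162* of −0.45, all past the threshold. *Pcm1* itself had 1329 and 1309 normalized counts in Ctrl and 1239 and 1204 in miR-128OE. The conditions did not overlap, but the log2FC was only −0.11 (SE 0.08, adjusted p = 0.305). *Cep20* ran in the other direction. This gene, also known as *Fopnl*, encodes a small satellite protein needed for cilium formation, and had 512 and 479 normalized counts in Ctrl and 757 and 752 in miR-128OE. Both miR-128OE libraries were far above both Ctrl libraries, with a log2FC of 0.60 (SE 0.09, adjusted p = 0.00125), and the call was kept whichever library was omitted. *Cep126* had the largest positive log2FC of the 55 genes (0.64), at 55.8 to 110 normalized counts per library, and did not pass the threshold (adjusted p = 0.0620).

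*Cep55*, which encodes a midbody protein needed for the final cut of cell division, was the single member in the cytokinesis group. It had 147 and 212 normalized counts in Ctrl and 130 and 107 in miR-128OE. All miR-128OE values were the lower ones, but the spread between the Ctrl libraries was large, and the log2FC of −0.59 (SE 0.21) missed the threshold (adjusted p = 0.0559). *Cep55* was called lower with the exact test, the likelihood ratio test, upper-quartile factors, total counts or no filter on low counts. It was not called with DESeq2 (adjusted p = 0.128). Its log2FC was −0.85 without WH7 and −0.32 without WH8.

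The most negative fold change of all 55 genes belonged to *Cep112*, a little-studied coiled-coil gene on chromosome 11 from 108425192 to 108860615. It had 268 and 273 normalized counts in Ctrl and 100 and 109 in miR-128OE. The replicates lay close together on either side, far from the other condition, and the log2FC was −1.37 (SE 0.14, adjusted p = 0.000216). *Cep95*, with 350 and 407 normalized counts in Ctrl and 189 and 223 in miR-128OE, had a log2FC of −0.87 (SE 0.14, adjusted p = 0.00162). *Cep70* (−0.51) and *Cep85l* (−0.63) were also lower. *Cep85l* shares 141 exon bases with *Pln*, a very abundant cardiomyocyte gene on the opposite strand that had 18828 to 38237 counts and was higher (log2FC 0.59, adjusted p = 0.0143), so the count of *Cep85l* is uncertain. *Cep85*, its paralog, had 0.26.

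miR-128 binds its targets through a seed, bases 2 to 8 of the mature strand. The strand is shown first, from RefSeq on GRCm38.p6, with the seed in capitals. The mouse genome encodes it at chr1:128202404-128202424 (+) and chr9:112118644-112118664 (−).

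miR-128-3p: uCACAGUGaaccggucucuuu

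Of the 55 tested centrosomal genes, 14 (25.5%) held a match to this seed, either CACTGTG or ACTGTGA, in their longest annotated 3′UTR, against 31.0% of the 13495 tested genes with a 3′UTR. Among these 14, 7 were lower and 1 was higher, with a median log2FC of −0.38. Among the 41 without a match, 18 were lower and 0 were higher, with a median of −0.44. The median 3′UTR measured 1749 bases in genes holding a match and 536 in the others. Over all tested genes, 15.7% of those with a match and 14.3% of those without were lower. The windows below are the matches in the 8 called genes, 1 for each gene and 2 for *Cep162*, whose 3′UTR held 5 matches. They were read from GENCODE M21 transcripts on GRCm38, run 5′ to 3′ on the strand of the gene, and carry the matched bases in capitals.

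Cdk5rap2, chr4:70222986-70223015 (−): tgcctctgtcctCACTGTGgctcctggtgg
Cep20, chr16:14299272-14299301 (−): tctcagtgacaaACTGTGAtgttgaactgt
Cep350, chr1:155847904-155847933 (−): tataacccattgCACTGTGtttaattttcc
Tubgcp6, chr15:89100168-89100197 (−): tctagcatgaagCACTGTGtgctaagggcg
Tubgcp3, chr8:12614915-12614944 (−): gtagtcgaaagaCACTGTGAtgtgctggga
Cep162, chr9:87192037-87192066 (−): cacatgcagtctCACTGTGAatgtccaggc
Cep162, chr9:87190466-87190495 (−): cacatgcagtttCACTGTGAatgtttgagc
Cep72, chr13:74037068-74037097 (−): ttgaagttgtatCACTGTGtagacttgttg
Cep128, chr12:90998843-90998872 (−): ggccagtcgtccCACTGTGAtcatcctggt

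The printed matches of *Tubgcp3*, *Cep162* and *Cep128* pair with the full seed and are followed by A, whereas the other match of *Tubgcp3* lacks that A and the other 3 of *Cep162* lack the pairing of the last seed base. *Cdk5rap2* and *Tubgcp6* held 3 matches each. *Cep20*, the gene that was higher, also carried a match, as did *Haus2* and *Cep170b*, with positive fold changes that missed the threshold. Of the 5 members with the smallest p-values among those called lower, *Cdk5rap2* held matches, and *Cep250*, *Cep112*, *Haus8* and *Cep95* held none in the annotated 3′UTR.

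Promoter windows, from 250 bases before to 50 after an annotated start in RefSeq on GRCm38.p6, were found for 47 of the 56 genes. They were searched on both strands for TTTGAA, the core of the cell cycle homology region that many genes of late cell cycle phases carry, for CCAAT, and for the E2F sites TTTCCCGC, TTTGGCGC and TTTCGCGC. TTTGAA was held by 8 of the 23 lower genes (34.8%) and by 3 of the 23 genes not called (13.0%), where 17.8% of all 18170 genes of the table with a window and 14.1% of the 10780 tested protein-coding ones held it. An E2F site was held by 1 lower gene, *Cep128*, and by 1 gene not called, *Cep63* (4.35% each). The shares were 2.80% of all genes with a window and 3.91% of the tested protein-coding ones. CCAAT was held by 10 and 9 of the 23 genes (43.5% and 39.1%), beside 42.3% and 42.7% in these 2 backgrounds. A window can overlap another of the same gene, and a match of 6 letters is a description, not a site in use. In *Cep112*, *Cdk5rap2*, *Cep72* and *Cep295*, TTTGAA lies after the start, at positions 17, 27, 15 and 41. In *Cep57l1*, the same match lies after a start, at position 3, and before another, at position −203. The 4 lower genes with TTTGAA before a start are shown in order of p-value, in 100-base stretches with the match in capitals.

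Cep164, chr9:45828756-45828855 (−): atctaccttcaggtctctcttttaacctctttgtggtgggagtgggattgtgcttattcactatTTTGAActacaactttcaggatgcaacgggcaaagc
Cep89, chr7:35396885-35396984 (+): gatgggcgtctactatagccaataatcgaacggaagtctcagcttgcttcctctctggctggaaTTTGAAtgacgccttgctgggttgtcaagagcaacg
Cep57l1, chr10:41809814-41809913 (−): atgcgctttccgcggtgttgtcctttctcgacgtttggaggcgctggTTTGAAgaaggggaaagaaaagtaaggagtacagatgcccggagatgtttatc
Cep162, chr9:87255644-87255743 (−): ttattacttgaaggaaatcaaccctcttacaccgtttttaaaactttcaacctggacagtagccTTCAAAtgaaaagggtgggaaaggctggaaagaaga

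Other genes of the same structures, compiled by symbol outside the naming rule, were read from the same fit. Of these 53 genes, 21 were lower (39.6%) and 3 were higher (5.66%) in miR-128OE hearts, beside 15.0% and 16.5% of all tested genes, with a median log2FC of −0.28 beside −0.01. In centriole assembly, 7 of 15 were lower, led by *Cntln* (log2FC −0.78), *Cntrob* (−0.98) and *Spice1* (−0.95), and the X-linked *Cetn2*, a centrin, was higher (0.30). In linker and appendages, 6 of 9 were lower and 0 were higher. *Crocc*, which encodes rootletin, the fiber that C-Nap1 anchors, had a log2FC of −0.95, and *Lrrc45* and *Fbf1* of −0.81 and −0.76. In pericentriolar material and the spindle pole, 4 of 16 were lower (25%), among them *Akap9* (−0.58), *Numa1* (−0.61) and *Tpx2* (−0.52), whereas *Mzt2*, a small gamma-tubulin complex protein, was higher. Gamma-tubulin itself, *Tubg1*, had a log2FC of −0.07 (adjusted p = 0.684). In satellites and ciliogenesis, *Ccdc66*, *Tbc1d31* and *Ccdc61* were lower among 8, with log2FCs of −0.61, −0.94 and −0.64. The call of *Tpx2* was lost without WH9 (adjusted p = 0.0775) and without WH10 (0.0722), those of *Ccdc66* and *Ccdc61* without WH9 (adjusted p = 0.0564 and 0.113) and that of *Tbc1d31* without WH10 (adjusted p = 0.071). *Tubg1*, *Mzt2* and *Cetn2* were named after their values were seen.

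Of the 5 genes of the nuclear envelope site, where muscle cells organize microtubules, 1 was lower and 1 was higher, shares of 20% each beside 15.0% and 16.5% over all tested genes. *Akap6*, which encodes the anchor of centrosomal proteins at the cardiomyocyte nucleus, had 842 and 881 normalized counts in Ctrl and 1253 and 1165 in miR-128OE. Both miR-128OE libraries were above both Ctrl libraries (log2FC 0.49, SE 0.08, adjusted p = 0.00249). *Syne2*, which encodes nesprin-2, had 1345 and 1224 normalized counts in Ctrl and 694 and 712 in miR-128OE and was lower (log2FC −0.87, SE 0.09, adjusted p = 0.00017). *Syne1*, *Sun1* and *Sun2* had log2FCs from −0.27 to −0.04 and did not pass the threshold. *Sun2* came closest (adjusted p = 0.0566). It was called lower with upper-quartile factors, total counts or no filter on low counts, and not with DESeq2 (adjusted p = 0.149).

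Some markers of cell types were past the threshold, where 15.0% of all tested genes were lower and 16.5% were higher. Lists of 3 to 6 genes are too short to set their counts of calls against these shares. In bulk tissue, fewer cells of a type and less RNA per cell cannot be told apart. The 6 markers of dividing cells summed to 441 and 590 CPM in Ctrl and 306 and 302 CPM in miR-128OE, and 4 of them (*Mki67*, *Top2a*, *Birc5* and *Ccna2*) were lower. WH8 was the highest library for this sum. Cardiomyocyte markers summed to 29980 and 30505 CPM in Ctrl and 37100 and 36348 CPM in miR-128OE, with 3 of 6 genes higher and 1 lower. Fibroblast markers (3525 to 5433 CPM) and leukocyte markers (56.5 to 73.2 CPM) held 0 genes past the threshold. Endothelial markers held 2 higher and 1 lower among 5, at 1127 and 1135 CPM against 1344 and 1236 CPM, and smooth muscle and pericyte markers also 2 higher and 1 lower among 5, at 1623 and 1554 CPM against 2116 and 2334 CPM. Epicardial markers summed to 106 CPM in WH7 and to 51.7 to 61.8 CPM in the others, with 0 of 4 past the threshold, and red cell markers to 32.1 to 78.5 CPM, with 1 of 5 higher and 2 at 0. The 3 Schwann cell markers, at 23.5 to 38.5 CPM, held 1 lower and 1 higher. Multiciliated cells, which are rich in centrioles, had 4 markers that summed to 5.2 to 6.0 CPM, 0 of which passed the threshold, and *Foxj1* had 0 to 3 counts. The part of these cell types in the centrosomal differences was not tested.

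Exon length moved with the fold change as well. The 55 centrosomal genes had a median exon length of 6175 bases, against 4409 over all tested genes, and a median GC content of 45.1% against 49.7%. Over all tested genes, the median log2FC fell from 0.11 under 2000 bases of exon to −0.19 over 12000 bases, and the share called lower rose from 8.26% to 30.8%. Within each length class above 2000 bases, the median of the centrosomal genes lay below that of all tested genes, with medians of −0.39 between 2000 and 4000 bases (9 genes), −0.44 between 4000 and 6000 (15 genes), −0.30 between 6000 and 8000 (11 genes), −0.46 between 8000 and 12000 (12 genes) and −0.47 over 12000 (7 genes). With an offset for GC content and exon length, 21 of the 55 were lower and 5 were higher, with a median log2FC of −0.34. Over all genes in that fit, 12.8% were lower and 17.8% were higher, with a median log2FC of 0.01. The calls of *Cep128*, *Cep162*, *Cep295*, *Cep70* and *Cep97* were lost and *Haus4* was gained, and *Cep126*, *Cep170b*, *Cep85* and *Haus2* joined *Cep20* as higher.

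**Figure D4:**
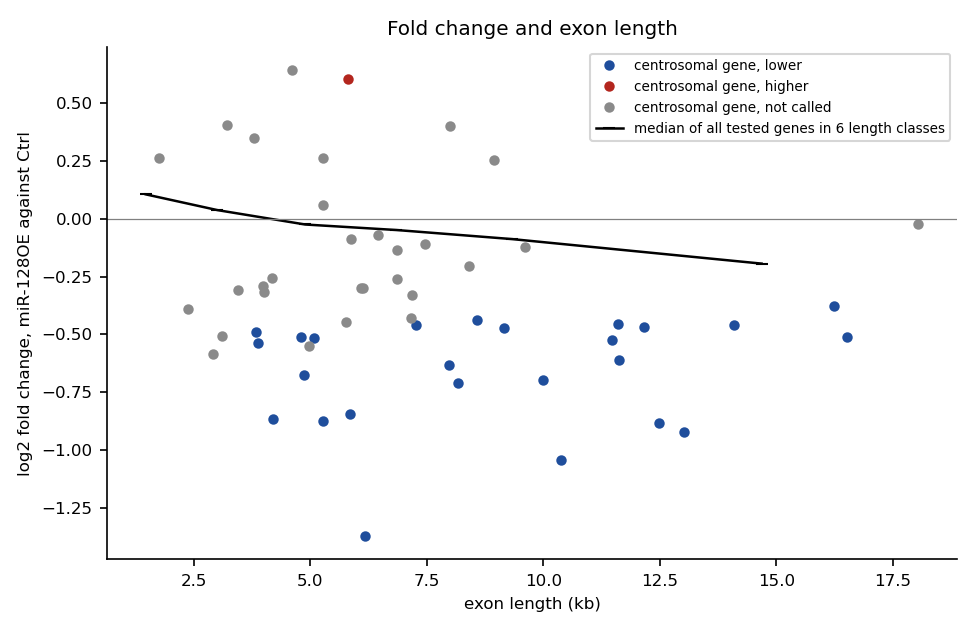
Log2 fold change of the 55 tested centrosomal genes against exon length in kilobases. Points are genes, colored by call, and the black line joins the medians of all tested genes in 6 length classes, which fall from 0.11 to −0.19, while most centrosomal genes lie below it.

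The share of centrosomal genes called lower was above that of all tested genes under every setting tried. It ranged from 14.3% without miR-128OE WH9, where 4.56% of all tested genes were lower, to 58.2% without Ctrl WH7, where the latter was 16.4%. With a change of at least 1.5-fold also required, 12 of 55 were lower (21.8%), against 8.32% of all tested genes.

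**Figure D5:**
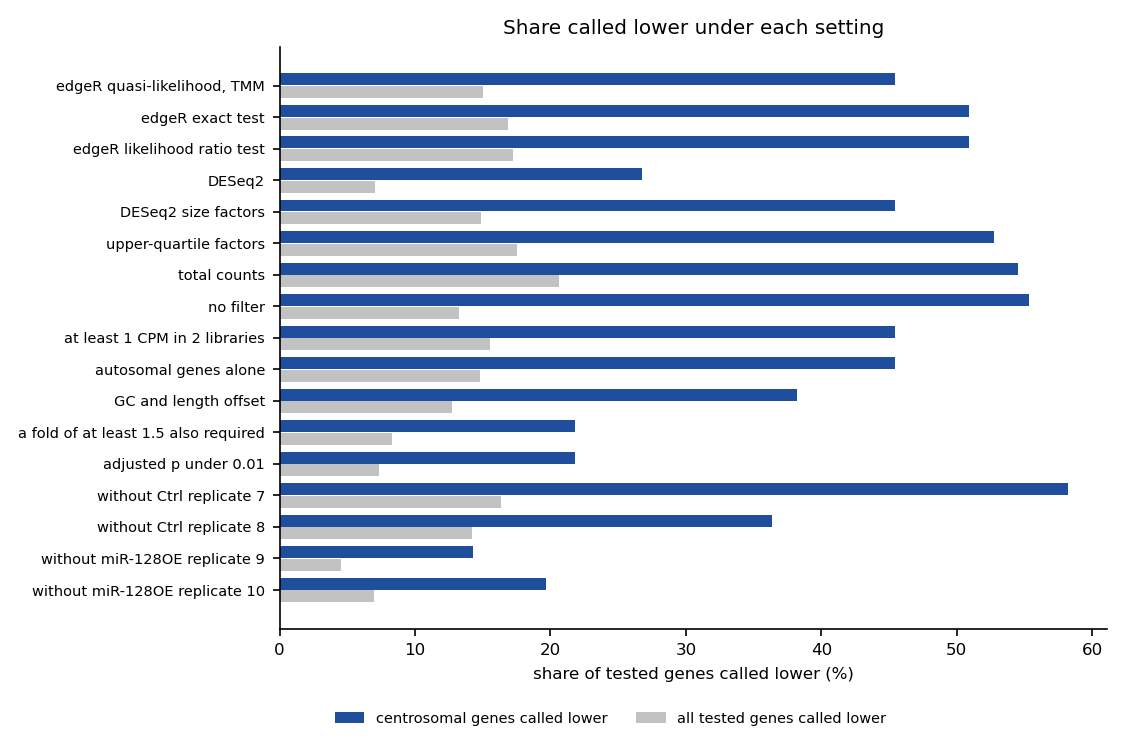
Share of the tested centrosomal genes (blue bars) and of all tested genes (grey bars) called lower in miR-128OE hearts, in percent, under the main test and 16 alternatives. The blue bar is the longer one in each pair and shortest without miR-128OE library WH9 (replicate 9), at 14.3%.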

How the data were processed

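RNA-seq counts of 4 libraries of P7 mouse hearts were analyzed, 2 of Ctrl and 2 of miR-128OE. Reads of low quality were discarded by the authors, who aligned the rest with TopHat2 to mm10, which is GRCm38, counted them per known gene in Bioconductor and deposited raw counts per Entrez gene and library. The submitters' processing notes also name bcl2fastq and edgeR. Gene models, strand and the treatment of multi-mapping reads are not given in the sources used here. Symbols, chromosomes and gene types came from RefSeq (GRCm38.p6) and GENCODE M21, and 24380 of 24454 identifiers had a symbol.

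The paper names edgeR's negative binomial model. Here the counts were tested with edgeR 4.0.16 in R 4.3.3, with filterByExpr defaults (minimum count 10, minimum total 15), TMM factors and the quasi-likelihood test, with Benjamini-Hochberg adjustment over the 14266 genes tested. SE was taken as |log2FC|/√F. Of the 56 centrosomal genes, 24 share exon bases with another annotated gene. Normalized counts are TMM-scaled to the mean effective library size, and RPKM uses the union of GENCODE exons. Intervals of counting error were not drawn, since PCR reads without molecular identifiers are not independent. The fit was tested on simulated counts in which 200 genes were changed. At an adjusted p under 0.05 it recovered 86% of changes of 1 and 98% of changes of 2 on the log2 scale, and 7.07% of its calls were false. Smaller changes, such as the median of −0.44 here, were not simulated.

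The members and lists were chosen with earlier results of these data known, so no test was made on a list. Named genes are the 10 lower and up to 5 higher members with the smallest p-values, the 6 members the rule names singly, the leading member of each role and the 3 leading genes of each part of the companion list. Other genes were named to complete a group. Alternatives were the edgeR exact and likelihood ratio tests, DESeq2 1.42.0, other size factors, filters and thresholds, autosomal genes alone, a loess offset (span 0.5) and each library left out. Python 3.11.15 was used for sites, motifs and summaries.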

Additional observations from a re-analysis of the deposited data

How the results depend on the processing

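Of the genes named by rule, *Plk4* was the one that changed its direction under the alternatives run. It was not called and had a log2 fold change between −0.53 and 0.0187 with 1 library left out. The number of centrosomal genes called lower, 25, became 15 with DESeq2, 12 with a 1.5-fold minimum and 12 at an adjusted p under 0.01. Of all genes under these settings, 7.03%, 8.32% and 7.36% were lower, the first over 18880 genes with low counts included. With 1 library left out it ranged from 8 to 32. The number called higher, 1, became 4 with the exact test, the likelihood ratio test or no filter on low counts and 5 with the GC and length offset. The shares of all genes called higher in these fits were 17.3%, 17.6%, 14.9% and 17.8%, in this order. The median log2 fold change of −0.44 ranged from −0.51 to −0.31 with 1 library left out. The 53 companion genes had 13 to 23 lower and 1 to 4 higher with 1 library left out, and 1 higher with a 1.5-fold minimum or at an adjusted p under 0.01. Genes with a seed match numbered 6 when only ACTGTGA was counted. Scaling by total counts shifted the all-gene median to −0.11 and called 2948 genes lower and 1611 higher, in place of 2143 and 2347. Of the centrosomal genes, 30 were then lower and 1 was higher. The median SE was 0.17 for centrosomal genes under 200 normalized counts and 0.11 for the others. No paired analysis was possible because the libraries of the conditions share no replicate number.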
